A study of Nothobranchius furzeri with 6 samples.

Results

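Single-cell transcript counts of the killifish neural retina were compared between 12 weeks and 6 weeks of age, cell type by cell type. The African turquoise killifish (Nothobranchius furzeri) is a fish with a very short life span that is kept as a model of ageing. The 12-week-old group consisted of 2 libraries, each pooled from the retinas of 2 fish, and the 6-week-old group of 2 libraries, each pooled from the retinas of 3 fish. All fish were untreated wildtype females of the inbred GRZ-AD strain, and the retinal pigment epithelium had been removed before dissociation. The number of pooled fish thus differed between the ages along with age itself. The members were chosen by library and by the authors' cell type annotation: counts were summed per library and type, and a type was kept when it had at least 10 cells in every library. This held for 10 of the 12 annotated types and for 27072 of the 37243 cells in the series, with 6596 and 6286 cells in the 12-week-old libraries and 6976 and 7214 cells in the 6-week-old libraries. Oligodendrocytes were the smallest type kept (56 to 85 cells in these 4 libraries), while the pigment epithelium had as few as 1 cell and red blood cells as few as 0 in a library. The study also has 2 libraries of 18-week-old fish, which entered each fit to estimate the spread and whose levels are given beside some genes.

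The vertebrate retina turns light into nerve signals through a short chain of neurons. Rods and cones absorb light with opsins, bipolar cells carry their output inwards to the ganglion cells, and horizontal and amacrine cells shape the signal at the outer and inner synapses. Müller glia span the whole depth of the tissue and take up transmitter, buffer ions and supply neurons with metabolites and lipids, and in fish they can also act as a source of new neurons. Age effects in such a tissue can fall on 1 of these types or run through several of them, which is the question that summing counts by type addresses.

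Levels are given as CPM, the count of a gene in the summed cells of a type per 1000000 transcripts, scaled between libraries. A library held 20249669 to 24317894 transcripts over all its cells, and a type held between 326996 (immune cells) and 7727127 (bipolar cells) in a library. Markers of the type were checked against the annotation: 14 of 14 cone genes, 16 of 20 rod genes, 21 of 22 detected microglia genes and 14 of 21 bipolar markers were highest in the type they mark, whereas only 7 of 14 Müller glia markers were, as genes such as APOEA, CAHZ and SLC1A3A were higher elsewhere. Any 2 libraries shared between 6 and 18 cell barcodes. The roles given for genes are known from other vertebrates. A gene was called when its edgeR quasi-likelihood test, adjusted after Benjamini and Hochberg over the genes of the type, fell under 5%. Each fit was repeated with each of the 6 libraries of the series left out in turn, and "held in 4 of 6" below says in how many of those fits a gene stayed called. In 2 of these 6 fits the library left out was of 18 weeks, which is not among those compared. A gene that held in 2 of 6 may thus have held in those 2 fits alone. With 2 pools per age, a p-value sets the change against the spread between pools, estimated over all 6 libraries. The spread between single fish was not measured. A lower level in a pool of cells can mean less RNA per cell or fewer cells of a subtype that carries it. The summed counts do not tell these apart, and single cells were not examined for it.

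At 12 weeks, 181 pairs of gene and type were called of 108708 tested in the 10 types (0.167%), of which 85 were higher and 96 lower than at 6 weeks. Müller glia had the highest count, with 36 genes higher and 39 lower of 12711 tested (0.590%). Cones followed with 23 higher and 19 lower of 11317 (0.371%). Bipolar cells had 8 higher and 18 lower of 15504 (0.168%), horizontal cells 10 higher and 9 lower of 11286 (0.168%), and rods 6 higher and 11 lower of 10840 (0.157%). Differentiating cells had a single call of 8615 genes (0.0116%), as did oligodendrocytes of 6336 (0.0158%). No gene was called by edgeR in amacrine, ganglion or immune cells (0%), where DESeq2 called 5, 0 and 1 genes. An unadjusted edgeR p under 0.05 was found for 523 of 13911, 541 of 12161 and 322 of 6027 genes. Without any change, about 5% of genes would have such a p. The types differ in cell number and depth, so these counts do not rank how much each type changed.

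**Figure D1:**
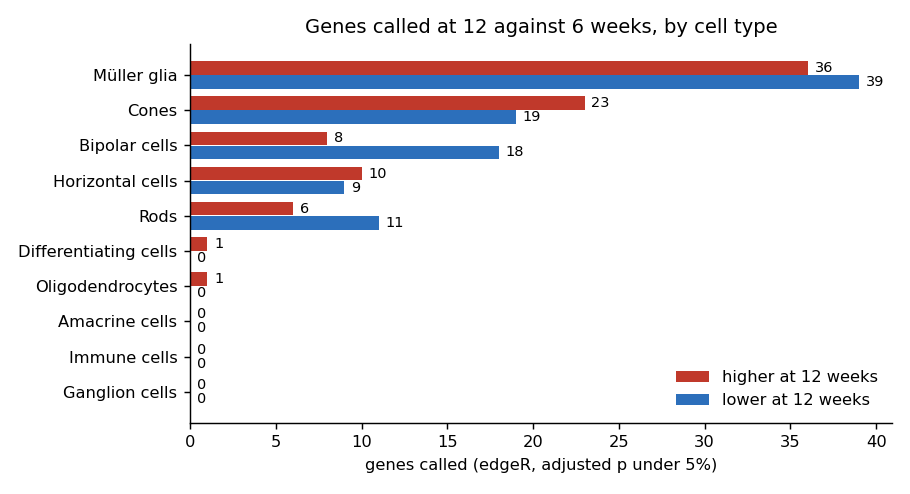
Number of genes called at 12 against 6 weeks in each cell type (horizontal axis, genes with an edgeR adjusted p under 5%), with genes higher at 12 weeks in red above genes lower at 12 weeks in blue. Müller glia have the most calls (36 higher, 39 lower) and amacrine, immune and ganglion cells have none.

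The 181 pairs came from 132 genes, 106 of them called in 1 type and 26 in 2 to 5 types. In every called pair the 2 libraries of 12 weeks lay outside the range of the 2 libraries of 6 weeks. Selection by a small p makes such a gap likely. The direction of every called pair stayed the same in every alternative fit that could test it. These fits reuse the same separated libraries, so this outcome was nearly fixed in advance and is no further support. Of the 181 pairs, 59 stayed called whichever 1 of the 6 libraries was left out, and between 88 (without 6-week library 1) and 133 (without 12-week library 2) stayed called when 1 of the 4 libraries compared was left out. When the cells of each library were summed without regard to type, edgeR called none of 18964 genes (0%), and DESeq2 called 67. An unadjusted edgeR p under 0.05 was found for 1076 of the 18964, where about 5% would have it without any change.

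Müller glia had lower transcript levels of the enzymes that build cholesterol at 12 weeks. Sterol synthesis starts from acetyl-CoA, passes through mevalonate and farnesyl diphosphate to squalene, and ends with the ring-closing and trimming steps that give cholesterol. Of 25 tested members of the sterol list, which also holds regulators, 11 were lower and none higher at 12 weeks, where 0.307% of all genes of the type were called lower. The list had a median log2 fold change of -1.01, against -5.3e-05 over all genes tested in Müller glia, and 24 of its 25 estimates lay below 0.

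The called genes included enzymes of the mevalonate steps and of the steps after squalene. FDPS, the farnesyl diphosphate synthase, stood at 52.5 and 44.6 CPM in the 12-week-old libraries, against 240.1 and 192 CPM in the 6-week-old libraries (log2 fold change -2.15 with SE 0.18, edgeR adjusted p = 3.8e-05, held in 6 of 6). Its level was thus 4.43 times as high at 6 weeks. SQLE, which oxidises squalene, stood at 37.4 and 32.4 CPM in the 12-week-old libraries, against 159.7 and 112 CPM in the 6-week-old libraries (log2 fold change -1.95 with SE 0.21, edgeR adjusted p = 2.6e-04, held in 6 of 6). MVD, which makes isopentenyl diphosphate, stood at 18.7 and 15.0 CPM in the 12-week-old libraries, against 62.6 and 48.0 CPM in the 6-week-old libraries (log2 fold change -1.70 with SE 0.24, edgeR adjusted p = 0.0027, held in 6 of 6). In each of these genes both 12-week-old libraries were under both 6-week-old libraries by a wide gap.

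HMGCRA, the rate-limiting reductase of the pathway and its most abundant called member, had 276 and 261 CPM at 12 weeks, against 607 and 511 CPM at 6 weeks (log2 fold change -1.06 with SE 0.15, edgeR adjusted p = 0.0027, held in 6 of 6). MSMO1, a sterol methyl oxidase, had 186 and 168 CPM at 12 weeks, against 437 and 373 CPM at 6 weeks (log2 fold change -1.19 with SE 0.17, edgeR adjusted p = 0.0030, held in 6 of 6). HMGCS1, the synthase that acts just before the reductase, had 163 and 106 CPM at 12 weeks, against 363 and 271 CPM at 6 weeks (log2 fold change -1.23 with SE 0.21, edgeR adjusted p = 0.0094, held in 4 of 6). The fitted changes of these abundant enzymes were nearer to 0 than those of FDPS and SQLE. CYP51, the lanosterol demethylase, had 102 and 93.5 CPM at 12 weeks, against 245 and 192 CPM at 6 weeks (log2 fold change -1.16 with SE 0.20, edgeR adjusted p = 0.012, held in 3 of 6). FDFT1, the squalene synthase, had 187 and 163 CPM at 12 weeks, against 343 and 289 CPM at 6 weeks (log2 fold change -0.85 with SE 0.16, edgeR adjusted p = 0.020, held in 3 of 6). The sterol dehydrogenase NSDHL, the lanosterol synthase LSS and the sterol isomerase EBP had log2 fold changes of -1.44 ± 0.23, -1.42 ± 0.25 and -1.24 ± 0.20 (SE), with edgeR adjusted p of 0.0067, 0.014 and 0.0073, each held in 4 of 6.

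**Figure D2:**
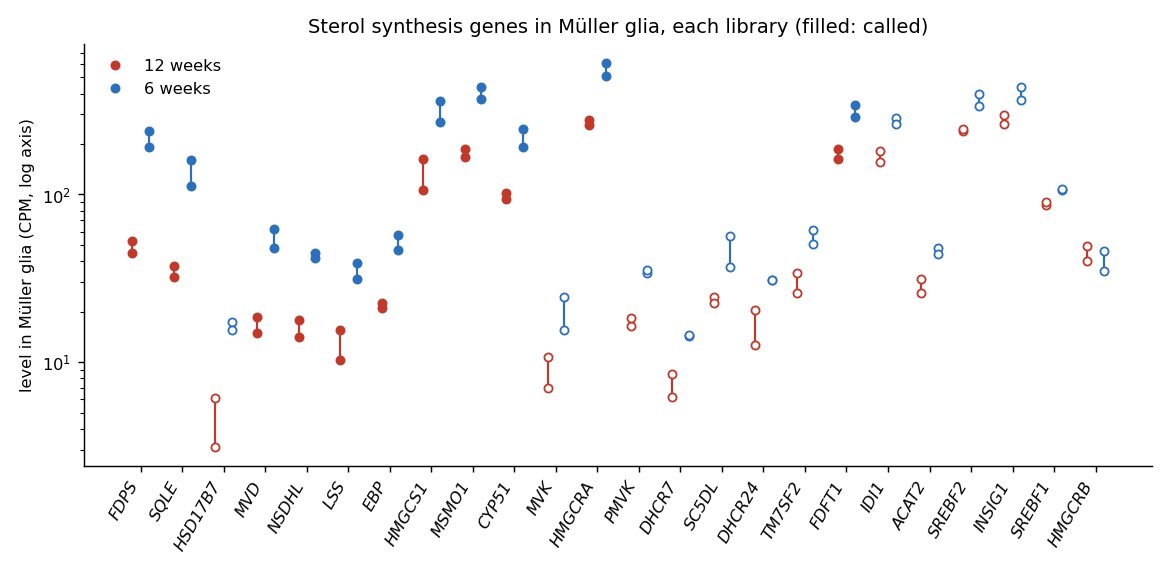
Level of the sterol synthesis enzymes and their regulators in Müller glia (vertical axis, CPM on a log scale), with the 2 libraries of 12 weeks in red to the left of the 2 libraries of 6 weeks in blue, joined by a line, and filled points for called genes. Genes are ordered by log2 fold change from FDPS (-2.15) to HMGCRB (0.12), and the ages of HMGCRB overlap.

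The 14 members that were not called had estimates between -1.83 (HSD17B7) and 0.12 (HMGCRB). Among them, the estimates of the regulators lay nearer to 0 than those of every tested enzyme but HMGCRB. SREBF2, a transcription factor that turns on these genes, had 241 and 244 CPM at 12 weeks, against 399 and 338 CPM at 6 weeks (log2 fold change -0.60 ± 0.15, edgeR adjusted p = 0.10). INSIG1, which holds that factor back in the endoplasmic reticulum, had 298 and 264 CPM at 12 weeks, against 435 and 368 CPM at 6 weeks (log2 fold change -0.51 ± 0.16, edgeR adjusted p = 0.25). HMGCRB, the other reductase entry, was at 40.0 and 49.3 CPM at 12 weeks, against 35.1 and 46.2 CPM at 6 weeks, and its ages overlapped. Left out 1 at a time, the libraries left between 6 and 13 sterol genes called lower, the lowest count being 6 without 6-week library 1 and without 12-week library 2. FDPS, SQLE, MVD, MSMO1 and HMGCRA held in all 6, whereas CYP51 had an edgeR adjusted p of 0.12 without 6-week library 1 and FDFT1 of 0.16 without 12-week library 2.

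At 18 weeks the same enzymes were at or below their 12-week level. FDPS had 16.3 and 20.1 CPM, SQLE 8.17 and 5.57 CPM and HMGCRA 109 and 108 CPM in the 18-week-old libraries. In the other types the list had no call, where 0% (amacrine, ganglion and immune cells) to 0.371% (cones) of all genes were called. Its medians were -0.40 in amacrine cells (17 of 18 tested estimates below 0), -0.34 in rods (17 of 19) and -0.22 each in ganglion (13 of 15) and differentiating cells (11 of 15). They were -0.17 in bipolar cells (17 of 21), -0.16 in immune cells (11 of 16) and -0.15 in horizontal cells (11 of 16). In cones the median was 0.03 (8 of 18) and in oligodendrocytes 0.06 (6 of 17). Most estimates thus lay below 0 in every type but cones and oligodendrocytes. The test of the difference itself set the change in Müller glia against the mean change in cones, bipolar cells, horizontal cells and rods within each library. It called no gene, sterol genes included. The estimate for FDPS was -1.87 ± 0.24 (SE), limma unadjusted p = 3.0e-05 and adjusted p = 0.26, the lowest adjusted p of the 8944 genes. For HMGCS1 it was -1.18 ± 0.23 (SE), limma unadjusted p = 6.4e-04 and adjusted p = 0.44, and for MVD -1.46 ± 0.26 (SE), limma unadjusted p = 3.6e-04 and adjusted p = 0.41. A sterol change particular to Müller glia is therefore not shown by this test. Of 16 list members with enough counts in all 5 types, 15 had an estimate below 0 for this difference, with a median of -0.74. Several of them, FDPS, HMGCS1 and MVD included, had already been called lower in Müller glia in the same libraries. A lean below 0 was thus partly fixed in advance and is no further support.

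Other genes of lipid handling were also lower in Müller glia at 12 weeks. SMPDL3A, related to acid sphingomyelinase, was among the abundant transcripts of these cells and stood at 3300.2 and 3724 CPM in the 12-week-old libraries, against 9116 and 8786 CPM in the 6-week-old libraries (log2 fold change -1.35 with SE 0.16, edgeR adjusted p = 6.5e-04, held in 6 of 6). The gene was also called in cones, at 76.4 and 102 CPM at 12 weeks, against 179 and 191 CPM at 6 weeks (log2 fold change -1.06 with SE 0.16, edgeR adjusted p = 0.0021, held in 6 of 6). Its estimate lay below 0 in 9 of the 10 types. The difference of Müller glia from the other types was -0.50 ± 0.23 (SE), limma unadjusted p = 0.062 and adjusted p = 0.90. The part of RNA from Müller glia in the cone sums was not tested. FABP7A, a fatty acid binding protein of glia and progenitors, had 56.0 and 97.2 CPM at 12 weeks, against 205 and 167 CPM at 6 weeks (log2 fold change -1.28 with SE 0.27, edgeR adjusted p = 0.046, held in 3 of 6, and adjusted p = 0.40 without 12-week library 1). FABP7A was the only call among 9 tested members of the Müller glia marker list, whose median was -0.13, where 0.307% of all genes of the type were called lower. In these data it was highest in oligodendrocytes, so it did not mark Müller glia. The desaturase SCD and the citrate lyase ACLY(2OF2), which were picked after their values were seen, had log2 fold changes of -1.32 ± 0.22 and -0.83 ± 0.16 (edgeR adjusted p = 0.0093 and 0.027), but held in only 3 and 2 of 6.

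The rises in Müller glia included genes of innate immunity and of the response to stress. ZNFX1, an antiviral RNA helicase, stood at 73.8 and 58.2 CPM in the 12-week-old libraries, against 13.2 and 13.5 CPM in the 6-week-old libraries (log2 fold change 2.30 with SE 0.25, edgeR adjusted p = 2.7e-04, held in 6 of 6). This was 4.93 times the 6-week level, and the 18-week-old libraries were higher again, at 167 and 243 CPM. IRF3, a transcription factor that induces interferon, had 40.0 and 22.1 CPM at 12 weeks, against 14.7 and 7.64 CPM at 6 weeks (log2 fold change 1.53 with SE 0.32, edgeR adjusted p = 0.043, held in 3 of 6, and adjusted p = 0.47 without 12-week library 1). These 2 were the calls among 31 tested interferon response genes, where 0.283% of all genes of the type were called higher. The list had a median log2 fold change of 0.60, with 26 of 31 estimates above 0. Well-known effectors were near the detection limit at both ages: RSAD2 had 5.78 and 0.470 CPM at 12 weeks, against 0.509 and 0.364 CPM at 6 weeks, and ISG15(2OF2) had 5.34 and 0.470 CPM at 12 weeks, against 1.02 and 0.728 CPM at 6 weeks. At 18 weeks RSAD2 had 96.6 and 76.9 CPM and ISG15(2OF2) 149 and 63.5 CPM. At 12 against 6 weeks neither was called (edgeR adjusted p = 0.42 and 0.80). The microglia list, measured in the same Müller glia sums, had only 4 tested members of 23 and 0 calls. Of these, 2 estimates lay above and 2 below 0, from -1.41 to 1.89, with a median of -0.23. The part of RNA from microglia in these sums was not tested. Outside the interferon list, ZC3HDC1L, the entry that the study equates with the glaucoma-linked gene optn, rose by 0.87 ± 0.18 on the log2 scale (edgeR adjusted p = 0.035, held in 2 of 6, and adjusted p = 0.17 without 6-week library 1).

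Heat shock genes in Müller glia had 21 of 28 tested estimates above 0 and a list median of 0.19. Of the 28, 2 were called higher and 1 lower, where 0.283% of all genes were called higher and 0.307% lower. HSPA8, an entry of the 70 kDa chaperone family that most cells make at all times, had 61.8 and 52.1 CPM at 12 weeks, against 12.7 and 17.1 CPM at 6 weeks (log2 fold change 1.91 with SE 0.23, edgeR adjusted p = 6.5e-04, held in 6 of 6). Its 18-week-old libraries were back near the 6-week level, at 16.3 and 23.4 CPM. HSPA1A, the stress-induced member of that family, had 586 and 454 CPM at 12 weeks, against 133 and 144 CPM at 6 weeks (log2 fold change 1.90 with SE 0.33, edgeR adjusted p = 0.013, held in 3 of 6, and adjusted p = 0.17 without 6-week library 1). DNAJB5(2OF2), a co-chaperone, was lower at 9.78 and 13.2 CPM at 12 weeks, against 40.7 and 58.6 CPM at 6 weeks (log2 fold change -2.13 with SE 0.26, edgeR adjusted p = 8.8e-04, held in 6 of 6). FKBP5, a co-chaperone of the glucocorticoid receptor that the hormone itself induces, had 519 and 402 CPM at 12 weeks, against 285 and 248 CPM at 6 weeks (log2 fold change 0.79 with SE 0.16, edgeR adjusted p = 0.036, held in 3 of 6, and adjusted p = 0.46 without 12-week library 1). It was the only call among 23 tested glucocorticoid response genes in these cells, and the list median was 0.02. The study picked FKBP5 on these libraries, so its direction is not independent evidence.

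Further rises in Müller glia were those of a collagen gene, an endocytosis adaptor and entries without a known role. COL8A2, a short-chain collagen of basement membranes, had 15.6 and 29.6 CPM at 12 weeks, against 1.53 and 2.91 CPM at 6 weeks (log2 fold change 3.24 with SE 0.43, edgeR adjusted p = 0.0016, held in 6 of 6). It was the only call among 35 tested matrix genes, whose median was -0.05, where 0.283% of all genes of the type were called higher. LDLRAP1B, an adaptor of clathrin-dependent endocytosis, had 198 and 126 CPM at 12 weeks, against 45.3 and 54.6 CPM at 6 weeks (log2 fold change 1.69 with SE 0.21, edgeR adjusted p = 9.4e-04, held in 6 of 6), and was also called in horizontal cells. Among called genes with a symbol and at least 50 CPM, the largest fitted rise in Müller glia was that of LOC107396541, at 90.7 and 127 CPM at 12 weeks, against 11.2 and 6.19 CPM at 6 weeks (log2 fold change 3.69 with SE 0.79, edgeR adjusted p = 0.048, held in 3 of 6, and adjusted p = 0.36 without 6-week library 2), whose 18-week-old libraries disagreed at 282 and 24.0 CPM. CABZ01084273.1, an entry without a known role, rose in Müller glia (2.55 ± 0.25) and rods (2.47 ± 0.35), held in all 6 in both, and stood at 13.5 and 12.3 CPM in Müller glia at 18 weeks, close to its 6-week values of 16.3 and 8.37 CPM. Of the 75 genes called in Müller glia, 19 held in all 6, 45 were called by DESeq2, and 25 when cells were thinned to 1000 transcripts.

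In cones, the genes that rose included immediate early transcription factors and signalling proteins. None of 14 tested cone photoreceptor genes was called, where 0.371% of all genes of the type were. At such a share, a list this short would mostly have no call. EGR1, an immediate early factor that follows activity, stood at 259.6 and 251 CPM in the 12-week-old libraries, against 159.8 and 119 CPM in the 6-week-old libraries (log2 fold change 0.87 with SE 0.17, edgeR adjusted p = 0.025, held in 5 of 6, and adjusted p = 0.41 without 6-week library 2). JUN(2OF2), a component of AP-1, had 61.4 and 49.1 CPM at 12 weeks, against 18.4 and 25.1 CPM at 6 weeks (log2 fold change 1.36 with SE 0.25, edgeR adjusted p = 0.014, held in 5 of 6, and adjusted p = 0.094 without 6-week library 1). These were 2 of 25 tested immediate early genes, whose median was 0.37, where 0.203% of all genes tested in cones were called higher. AANAT(1OF3), the enzyme that makes the melatonin precursor and follows a daily rhythm, had 1103 and 587 CPM at 12 weeks, against 334 and 425 CPM at 6 weeks (log2 fold change 1.16 with SE 0.21, edgeR adjusted p = 0.016, held in 4 of 6, and adjusted p = 0.14 without 6-week library 1). It was the only call among 32 tested clock genes, whose median was -0.03, and DESeq2 did not call it (adjusted p = 0.58). The time of day at which fish were killed is not given in the sources used here.

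PTPRNB, a phosphatase-like protein of secretory vesicles, had 46.9 and 57.3 CPM at 12 weeks, against 16.7 and 18.0 CPM at 6 weeks (log2 fold change 1.58 with SE 0.19, edgeR adjusted p = 3.1e-04, held in 6 of 6). PREX2, an exchange factor for Rac, had 58.6 and 58.7 CPM at 12 weeks, against 23.9 and 16.1 CPM at 6 weeks (log2 fold change 1.54 with SE 0.20, edgeR adjusted p = 6.7e-04, held in 6 of 6). PTPRNB was thus 2.98 times and PREX2 2.91 times as high at 12 weeks, and PTPRNB had a like level at 18 weeks (52.3 and 58.6 CPM). MYO18AA, an unconventional myosin, had 50.1 and 73.5 CPM at 12 weeks, against 24.8 and 4.34 CPM at 6 weeks (log2 fold change 2.04 with SE 0.37, edgeR adjusted p = 0.013, held in 6 of 6), with a wide gap between the 6-week-old libraries and no call by DESeq2. LOC107389328, without a known role, had 70.3 and 54.9 CPM at 12 weeks, against 22.2 and 18.3 CPM at 6 weeks (log2 fold change 1.63 with SE 0.27, edgeR adjusted p = 0.0057, held in 5 of 6, and adjusted p = 0.056 without 6-week library 2). Its identifier follows directly on that of the cyclin gene CCND2A, which was picked after its values were seen and rose by 1.09 ± 0.17 (edgeR adjusted p = 0.0022). Reads of 2 neighbouring entries may not be separable. HSPA1A rose in cones too, to 838 and 519 CPM at 12 weeks, against 323 and 342 CPM at 6 weeks (log2 fold change 1.03 with SE 0.22, edgeR adjusted p = 0.038, held in 3 of 6, and adjusted p = 0.23 without 12-week library 1), without a call by DESeq2.

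Falls in cones included a respiratory chain subunit and a photoreceptor regulator. NDUFA4 (1 OF 2), a subunit of cytochrome c oxidase, had 42.6 and 35.8 CPM at 12 weeks, against 105 and 80.0 CPM at 6 weeks (log2 fold change -1.23 with SE 0.18, edgeR adjusted p = 0.0021, held in 6 of 6). It was the only call among 75 tested respiratory chain genes (0.168% of all genes in cones were called lower), of which 37 had estimates above 0 and 38 below. SAMD7, a repressor that helps set photoreceptor identity, had 81.3 and 98.8 CPM at 12 weeks, against 158 and 198 CPM at 6 weeks (log2 fold change -0.99 with SE 0.16, edgeR adjusted p = 0.0057, held in 5 of 6, and adjusted p = 0.098 without 6-week library 2). The difference between types gave -1.25 ± 0.23 (SE), limma unadjusted p = 0.0014 and adjusted p = 0.91 for NDUFA4 (1 OF 2) against the other 4 types. Its log2 level in cones minus the mean of those types was -2.61 and -3.25 in the 6-week-old libraries. In the 12-week-old libraries it was -4.16 and -4.19. Cones thus carried less of this entry than those types on average, and the source of its RNA in cones was not tested. The 14 cone photoreceptor genes without a call had a median of -0.01. Of the 42 cone calls, 14 held in all 6, 17 were called by DESeq2, and none when cells were thinned to 1000 transcripts.

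In rods, HSPB6 and HSD11B2 rose and DSCAMB, CHRM3A and NECAB2 fell. HSPB6, a small heat shock protein, stood at 1069.8 and 728 CPM in the 12-week-old libraries, against 329 and 313 CPM in the 6-week-old libraries (log2 fold change 1.49 with SE 0.23, edgeR adjusted p = 0.0056, held in 6 of 6). HSD11B2, which inactivates cortisol, had 17.3 and 15.9 CPM at 12 weeks, against 3.85 and 4.42 CPM at 6 weeks (log2 fold change 1.98 with SE 0.38, edgeR adjusted p = 0.046, held in 3 of 6, and adjusted p = 0.17 without 6-week library 1), and 18-week-old libraries were at 33.5 and 46.2 CPM. It was the only call among 21 tested glucocorticoid response genes in rods (median -0.01), where 0.0554% of all genes were called higher. SPINT2, an inhibitor of serine proteases at the cell surface, had 22.7 and 19.4 CPM at 12 weeks, against 2.57 and 1.10 CPM at 6 weeks (log2 fold change 3.51 with SE 0.44, edgeR adjusted p = 0.0012, held in 6 of 6), and the gene rose likewise in cones (log2 fold change 2.63 with SE 0.30, edgeR adjusted p = 2.2e-04, held in 6 of 6). CDC42EP4A, an effector of the small GTPase CDC42, rose in rods (log2 fold change 1.56 with SE 0.25, edgeR adjusted p = 0.0097, held in 5 of 6) and in Müller glia (log2 fold change 1.32 with SE 0.24, edgeR adjusted p = 0.018, held in 3 of 6). DSCAMB, a cell adhesion molecule that spaces retinal neurons in other vertebrates, had 15.7 and 20.9 CPM at 12 weeks, against 58.4 and 51.3 CPM at 6 weeks (log2 fold change -1.57 with SE 0.24, edgeR adjusted p = 0.0052, held in 6 of 6). SI:DKEY-43F9.4, without a known role, had 33.6 and 9.45 CPM at 12 weeks, against 106 and 93.3 CPM at 6 weeks (log2 fold change -2.23 with SE 0.38, edgeR adjusted p = 0.015, held in 6 of 6), but was not called by DESeq2 (adjusted p = 0.65). None of 20 tested rod photoreceptor genes was called in rods (median 0.04), where 0.157% of all genes were called. Of the 17 rod calls, 12 held in all 6, 14 were called by DESeq2 and 7 with thinned cells.

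In horizontal cells, the call with the largest rise was HENMT1, an RNA methyltransferase known from the small RNA pathway of the germ line, at 31.6 and 19.8 CPM at 12 weeks, against 1.48 and 3.22 CPM at 6 weeks (log2 fold change 3.40 with SE 0.47, edgeR adjusted p = 0.011, held in 6 of 6). Its level at 18 weeks was back at 0 and 1.63 CPM. The gene also rose in bipolar cells, at 10.5 and 6.03 CPM at 12 weeks, against 0.261 and 1.30 CPM at 6 weeks (log2 fold change 3.40 with SE 0.51, edgeR adjusted p = 0.022, held in 4 of 6, and adjusted p = 0.17 without 6-week library 1). LDLRAP1B had 37.2 and 26.0 CPM at 12 weeks, against 4.43 and 3.22 CPM at 6 weeks (log2 fold change 3.03 with SE 0.55, edgeR adjusted p = 0.038, held in 6 of 6) and 125 and 51.0 CPM at 18 weeks. XLOC_011646, an entry of unknown role that shares its symbol with another, had 35.2 and 83.5 CPM at 12 weeks, against 11.3 and 9.21 CPM at 6 weeks (log2 fold change 2.54 with SE 0.37, edgeR adjusted p = 0.012, held in 6 of 6). PDLIM5A, a scaffold at actin filaments, was lower at 64.8 and 67.5 CPM at 12 weeks, against 127 and 132 CPM at 6 weeks (log2 fold change -0.97 with SE 0.13, edgeR adjusted p = 0.011, held in 6 of 6). None of 9 tested horizontal cell markers was called (median -0.08), where 0.168% of all genes were called. Of the 19 calls, 6 held in all 6 and 6 were called by DESeq2. Without 18-week library 1 and without 18-week library 2, 7 and 8 of the 19 stayed called, and 5 did in a fit of the 4 libraries of 6 and 12 weeks alone.

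In bipolar cells, 18 of the 26 calls were falls, among them a cytoskeletal regulator and transcripts of cone opsins. MARCKSB, a membrane-bound regulator of actin, had 65.0 and 61.3 CPM at 12 weeks, against 110.0 and 151 CPM at 6 weeks (log2 fold change -1.05 with SE 0.17, edgeR adjusted p = 0.026, held in 3 of 6, and adjusted p = 0.17 without 6-week library 2). LWS-B, a long-wavelength cone opsin that bipolar cells do not use, had 60.8 and 86.6 CPM at 12 weeks, against 142 and 137 CPM at 6 weeks (log2 fold change -0.92 with SE 0.14, edgeR adjusted p = 0.022, held in 3 of 6, and adjusted p = 0.15 without 6-week library 1), and the same opsin was lower in Müller glia, at 23.1 and 16.0 CPM at 12 weeks, against 76.3 and 49.5 CPM at 6 weeks (log2 fold change -1.66 with SE 0.24, edgeR adjusted p = 0.0032, held in 6 of 6). The cone opsin entries RH2-B and KFH-G, picked after their values were seen, had log2 fold changes of -2.14 ± 0.37 and -2.20 ± 0.38 in bipolar cells (SE, edgeR adjusted p = 0.041 and 0.041, held in 3 and 2 of 6). In cones themselves LWS-B had an estimate of 0.26 ± 0.16 and was not called. The cone list, which does not hold these opsin entries, was measured as a whole in both types. In bipolar cells its 14 members summed to 1477 and 1225 CPM in the 12-week-old libraries, against 2134 and 1343 CPM in the 6-week-old libraries, with 12 of 13 tested estimates below 0, a median of -0.62 and no call. In Müller glia it summed to 532 and 368 CPM in the 12-week-old libraries, against 957 and 407 CPM in the 6-week-old libraries, with 9 of 11 below 0, a median of -0.62 and no call. Of all genes, 0.168% were called in bipolar cells and 0.590% in Müller glia, so a list this short would mostly have no call. None of its 14 members was at 0 in either type. The sums overlapped between ages, and cones were 6.88% and 4.90% of cells in the 12-week-old libraries, against 8.39% and 7.20% in the 6-week-old libraries. The part of RNA from cones in these falls was not tested. The rod list in bipolar cells had the other direction, with 16 of 20 estimates above 0 and a median of 0.17. Leaving out the authors' cluster 10, which carries pigment epithelium transcripts, left 23 calls in place of 26 in bipolar cells.

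**Figure D3:**
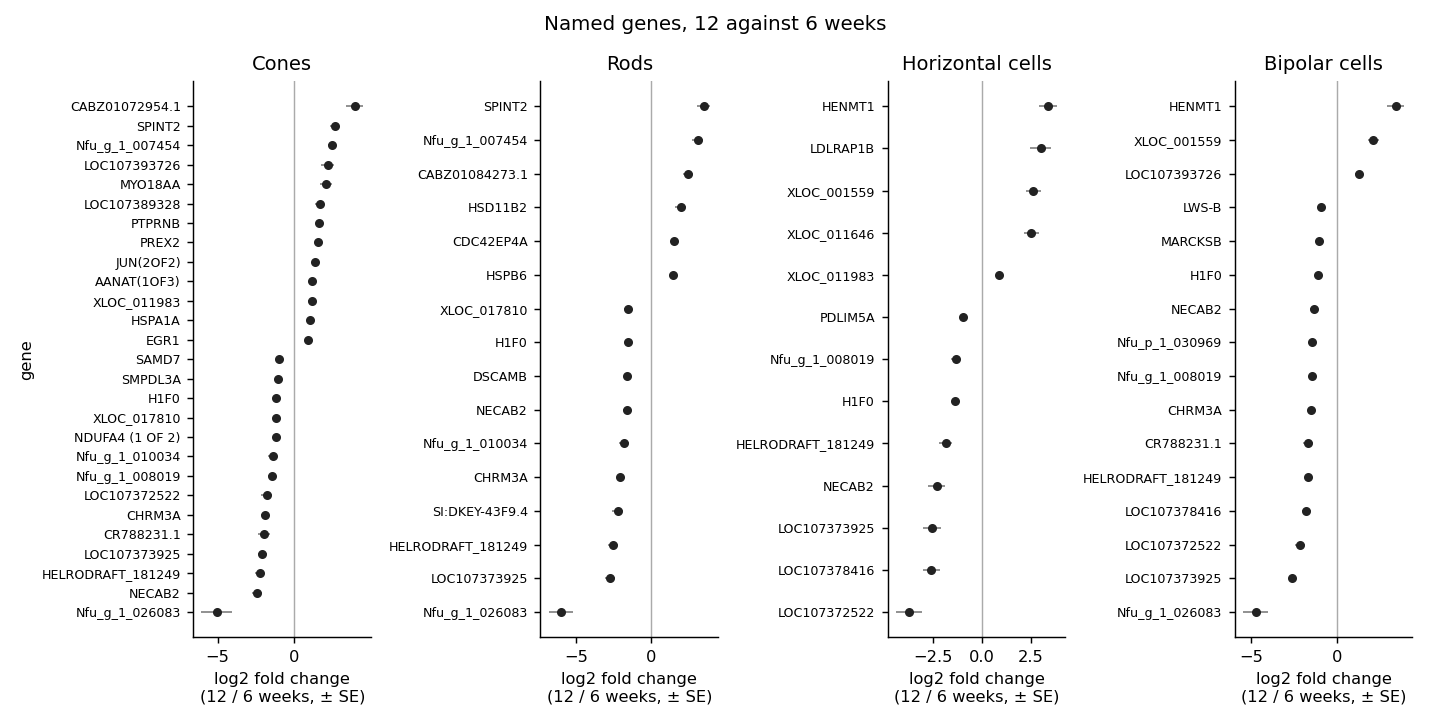
Fitted log2 fold change at 12 against 6 weeks (horizontal axis, points with SE bars) of the named genes in cones, rods, horizontal cells and bipolar cells, positive values being higher at 12 weeks. Each panel has its own scale, and Nfu_g_1_026083 has the lowest value in cones (-5.07), rods (-6.02) and bipolar cells (-4.76).

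A group of 26 genes was called in 2 or more types, 11 of them higher and 15 lower, and none in opposite directions. All types of a library came from the same pool of fish, so agreement between types is not replication. H1F0, a linker histone that accumulates in cells that have left the cell cycle, was lower in all 5 types with more than 10 calls. It stood at 552 and 693 CPM in the 12-week-old libraries, against 1287 and 1387 CPM in the 6-week-old libraries in bipolar cells (log2 fold change -1.10 with SE 0.13, edgeR adjusted p = 0.0050, held in 6 of 6). In cones it was at 421 and 428 CPM at 12 weeks, against 891 and 1035 CPM at 6 weeks (log2 fold change -1.18 with SE 0.15, edgeR adjusted p = 3.8e-04, held in 6 of 6), and in horizontal cells at 291 and 389 CPM at 12 weeks, against 787 and 981 CPM at 6 weeks (log2 fold change -1.38 with SE 0.14, edgeR adjusted p = 7.9e-04, held in 6 of 6). Rods had 189 and 225 CPM at 12 weeks, against 566 and 649 CPM at 6 weeks (log2 fold change -1.55 with SE 0.21, edgeR adjusted p = 0.0022, held in 6 of 6) and Müller glia 185 and 195 CPM at 12 weeks, against 388 and 458 CPM at 6 weeks (log2 fold change -1.15 with SE 0.17, edgeR adjusted p = 0.0030, held in 6 of 6). Its estimate was below 0 in all 10 types, from -1.55 in rods to -0.68, and at 18 weeks it was lower still in these 5 types, at 361 and 313 CPM in bipolar cells. The call in these 5 types held whichever 1 of the 6 libraries was left out, and with cells thinned to 1000 transcripts 4 types had a call. Other histone genes were not called in any type. With 0% (amacrine cells) to 0.590% (Müller glia) of all genes called, this does not set H1F0 apart from them.

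The transcripts CHRM3A and NECAB2 were called lower at 12 weeks in 4 and 5 types. CHRM3A, a muscarinic acetylcholine receptor, had 24.9 and 18.4 CPM at 12 weeks, against 101 and 80.0 CPM at 6 weeks in rods (log2 fold change -2.07 with SE 0.24, edgeR adjusted p = 6.0e-04, held in 6 of 6) and 64.1 and 61.0 CPM at 18 weeks. The 18-week-old libraries thus lay above both 12-week-old and below both 6-week-old libraries. It was also lower in bipolar cells (log2 fold change -1.55 with SE 0.13, edgeR adjusted p = 3.1e-04, held in 6 of 6), in cones (log2 fold change -1.92 with SE 0.23, edgeR adjusted p = 3.1e-04, held in 6 of 6) and in Müller glia (log2 fold change -1.70 with SE 0.36, edgeR adjusted p = 0.048, held in 2 of 6, and adjusted p = 0.25 without 6-week library 2). NECAB2, a calcium-binding protein known from neurons of other vertebrates, had 4.26 and 12.9 CPM at 12 weeks, against 54.1 and 34.4 CPM at 6 weeks in cones (log2 fold change -2.46 with SE 0.33, edgeR adjusted p = 6.7e-04, held in 6 of 6) and 54.8 and 39.7 CPM at 18 weeks. It was called in all 5 types, with estimates from -2.46 in cones to -1.36 in bipolar cells, and in Müller glia it stood at 11.1 and 19.3 CPM at 12 weeks, against 90.0 and 49.9 CPM at 6 weeks. Its counts were thus not confined to neurons in these data.

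Further falls shared by several types were of entries without a known role. LOC107373925 was lower in 5 types, for example at 18.4 and 5.47 CPM at 12 weeks, against 87.9 and 70.6 CPM at 6 weeks in rods (log2 fold change -2.74 with SE 0.34, edgeR adjusted p = 0.0011, held in 6 of 6), with 63.6 and 51.3 CPM at 18 weeks. HELRODRAFT_181249 was lower in 5 types, with 7.95 and 7.30 CPM at 12 weeks, against 22.7 and 26.3 CPM at 6 weeks in bipolar cells (log2 fold change -1.69 with SE 0.21, edgeR adjusted p = 0.0066, held in 6 of 6) and 26.1 and 38.6 CPM at 18 weeks. Nfu_g_1_026083 had the largest fitted falls, resting on few transcripts: in rods it had 0 and 0.995 CPM at 12 weeks, against 58.4 and 18.8 CPM at 6 weeks (log2 fold change -6.02 with SE 0.82, edgeR adjusted p = 0.0022, held in 6 of 6), which came from 2 transcripts at 12 weeks and 125 at 6 weeks. Nfu_g_1_008019 and LOC107372522 were lower in 4 and 3 types, Nfu_g_1_010034 in 3, and CR788231.1, LOC107378416, Nfu_p_1_030969 and XLOC_017810 in 2 each. Of the 15 genes called lower in several types, 13 had estimates below 0 in every type in which they could be tested, the exceptions being SMPDL3A and LWS-B.

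Rises shared by several types included Nfu_g_1_007454, an entry without a known role and the only call in differentiating cells. There it stood at 262 and 158 CPM in the 12-week-old libraries, against 24.3 and 27.1 CPM in the 6-week-old libraries (log2 fold change 3.02 with SE 0.32, edgeR adjusted p = 0.0011, held in 6 of 6). It was highest in Müller glia, with 1879 and 1185 CPM at 12 weeks, against 222 and 345 CPM at 6 weeks (log2 fold change 2.43 with SE 0.23, edgeR adjusted p = 1.1e-04, held in 6 of 6). It rose as well in cones (2.44 ± 0.26) and rods (3.12 ± 0.36), with estimates from 1.67 to 3.12 over the 10 types, which share the same pools of fish. At 18 weeks it was higher again, at 3414 and 2829 CPM in Müller glia. XLOC_001559 rose in horizontal cells, at 92.9 and 168 CPM at 12 weeks, against 29.1 and 13.4 CPM at 6 weeks (log2 fold change 2.63 with SE 0.38, edgeR adjusted p = 0.012, held in 6 of 6), and was also called in bipolar cells and Müller glia, held in 3 and 2 of 6. CABZ01072954.1 (cones and Müller glia), LOC107393726 (cones and bipolar cells) and XLOC_011983 (cones and horizontal cells) were called as well. Of the 11 genes called higher in several types, 10 had estimates above 0 in every type tested, the exception being CDC42EP4A. XLOC_011983 stood at 4528 and 2997 CPM at 12 weeks, against 2111 and 1371 CPM at 6 weeks in cones (log2 fold change 1.11 with SE 0.22, edgeR adjusted p = 0.025, held in 4 of 6, and adjusted p = 0.41 without 6-week library 2).

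**Figure D4:**
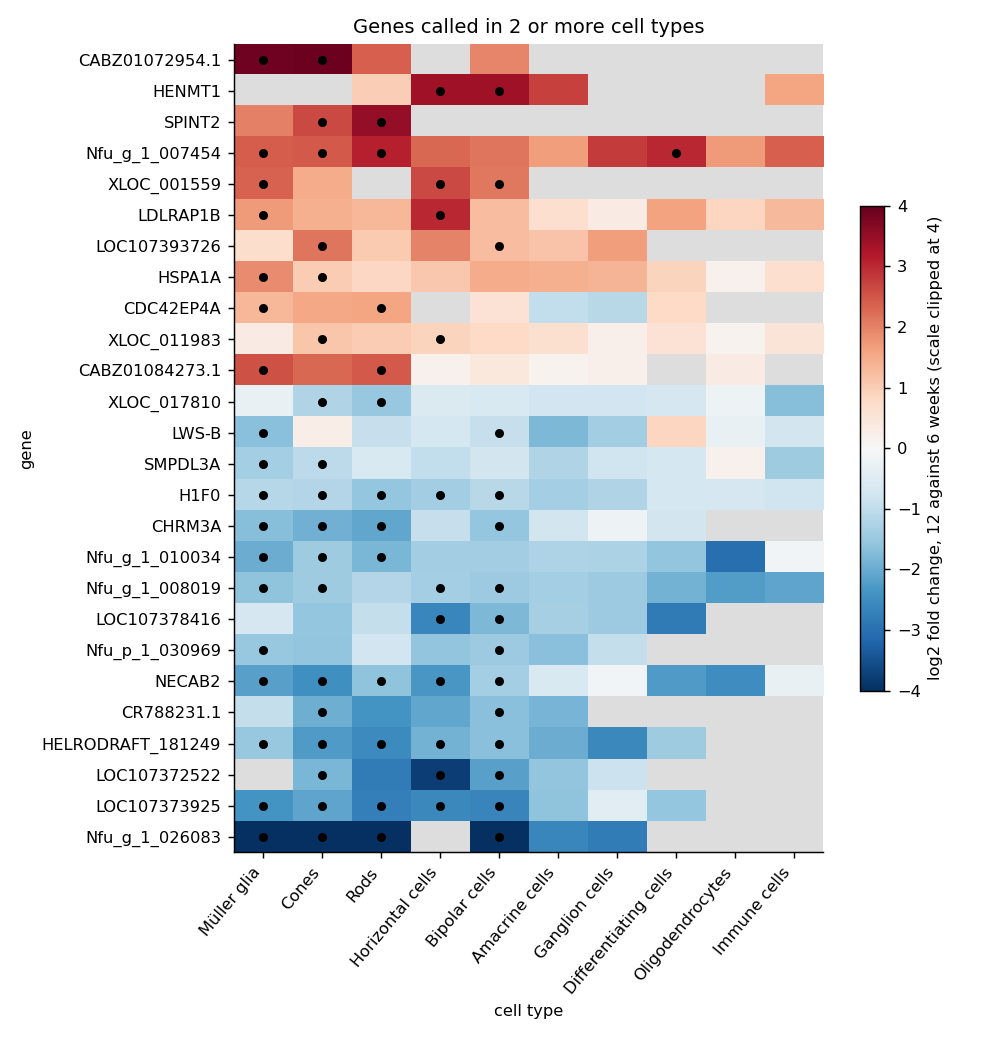
Fitted log2 fold change at 12 against 6 weeks (colour, red higher and blue lower at 12 weeks, clipped at 4) of the 26 genes called in 2 or more types (rows), in the 10 types (columns), with black dots for calls and grey for types in which a gene had too few counts to be tested. H1F0 and NECAB2 are lower with a call in all of the first 5 columns, and Nfu_g_1_007454 is red in every column.

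In oligodendrocytes, the single call was BDKRB2(2OF3), a bradykinin receptor, which had 89.3 and 105 CPM at 12 weeks, against 5.38 and 2.75 CPM at 6 weeks (log2 fold change 4.44 with SE 0.49, edgeR adjusted p = 7.9e-04, held in 6 of 6). The 18-week-old libraries had 171 and 126 CPM. With cells thinned to 1000 transcripts it fell under the filter on low counts and was not tested. No myelin gene was called in these cells (11 tested, median -0.11), where 0.0158% of all genes were called.

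**Figure D5:**
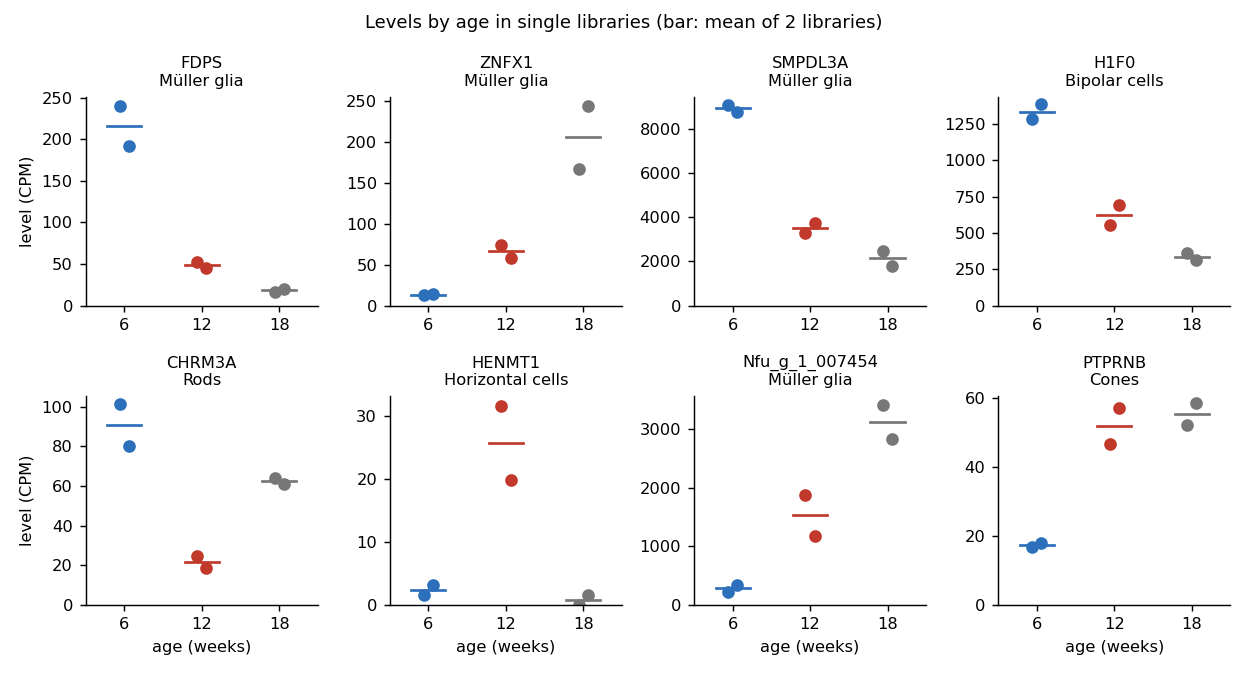
Level of 8 genes in 1 cell type each (vertical axis, CPM from 0) at 6, 12 and 18 weeks (horizontal axis), with a point per library and a bar for the mean of the 2 libraries. FDPS and SMPDL3A in Müller glia and H1F0 in bipolar cells fall at 12 weeks and stay low, CHRM3A in rods at 18 weeks lies between its 12- and 6-week levels, and HENMT1 in horizontal cells, higher at 12 weeks, is at 0 and 1.63 CPM at 18 weeks.

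To ask whether changes differed between types, the within-library difference of each of the 5 types from the mean of the other 4 was compared between ages for 8944 genes. limma called none of the 44720 pairs of gene and type (0%). An unadjusted limma p under 0.05 was found for 2568 of them, where about 5% would have it without any change. Of the 39 Müller glia calls that could be tested, 26 had an unadjusted p under 0.05, and 35 changed more in Müller glia than, or opposite to, the other types. In bipolar cells 3 of 13 called genes had an unadjusted p under 0.05, in horizontal cells 3 of 10, in cones 12 of 27 and in rods 6 of 11. The estimates for calls made in the same samples are not independent of those calls, so they describe the sizes of the differences. LDLRAP1B in horizontal cells, for example, differed by 1.45 ± 0.25 (SE), limma unadjusted p = 6.4e-04 and adjusted p = 0.70, and CABZ01084273.1 in Müller glia by 1.21 ± 0.23 (SE), limma unadjusted p = 5.5e-04 and adjusted p = 0.41.

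Several gene lists leaned 1 way in a type without a call. The genes of cytosolic ribosomal proteins, which build the ribosome, had a median log2 fold change of -0.41 in amacrine cells, with 76 of 77 estimates below 0, and of -0.51 in ganglion cells, with 75 of 76 below 0. In rods the median was -0.26 (72 of 76 below 0), in immune cells 0.17 (75 of 75 above 0), and in Müller glia 0.05 (54 of 77 above 0). The median over all genes tested lay between -0.02 (oligodendrocytes) and 0.0027 (ganglion cells). Immediate early genes in differentiating cells had a median of 0.62, with 21 of 22 estimates above 0, whereas in ganglion cells the median was -0.30, with 21 of 25 below 0. No gene of these lists was called outside cones, where 0% (amacrine, ganglion and immune cells) to 0.590% (Müller glia) of all genes were called. The absence of calls therefore does not set these lists apart. Ribosomal transcripts are abundant and vary together, so the number of members that lie on 1 side is not a count of separate events.

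The shares of cell types were set beside these changes. Differentiating cells were 2.37% and 2.10% of cells in the 12-week-old libraries, against 3.18% and 4.31% in the 6-week-old libraries. Immune cells were 2.80% and 1.83% in the 12-week-old libraries, against 1.36% and 1.26% in the 6-week-old libraries. Rods were 9.14% and 10.3% in the 12-week-old libraries, against 7.94% and 7.63% in the 6-week-old libraries. In these 3 types, in cones and in oligodendrocytes the ages did not overlap, yet 2 libraries against 2 cannot go below p = 0.333 in a two-sided exact permutation test over 6 assignments, which is the value each reached. edgeR on the cell counts of all 6 libraries called no type, with adjusted p of 0.28 for both immune and differentiating cells. Bipolar cells, the largest type, were 48.2% and 50.9% in the 12-week-old libraries, against 48.7% and 47.9% in the 6-week-old libraries, and their ages overlapped. Shares of dissociated cells also depend on how well each type survives dissociation.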

How the data were processed

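Retinas were dissociated with papain and sequenced with droplet 3' chemistry. Per the labels and the study's methods, the authors made the deposited raw transcript (UMI) counts with Cell Ranger 7.0.1 on a custom transcriptome of the GRZ assembly merged with long-read transcripts of telencephalon. They kept cells above 1000 transcripts (1001 to 19991 in the table), clustered them into 29 clusters with Monocle3 and named 12 cell types, and their annotation was taken over as it stood. For doublet removal the sources used here give nothing. In all, the table held 24989 genes, and the summed counts equalled the authors' total in all 37243 cells.

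Counts were summed per library and type. Pigment epithelium and red blood cells were left out for having under 10 cells in a library. Sums were scaled with TMM, filtered with filterByExpr by age and fitted with edgeR 4.0.16 (glmQLFit, glmQLFTest, R 4.3.3) over all 6 libraries, with age as a factor of 3 levels. P-values were adjusted after Benjamini and Hochberg within each type, with a threshold of 5%. Fold changes are 12 over 6 weeks. Differences between types were tested with limma 3.58.1 on log2 CPM (prior count 2). The study's regression over single cells was not followed, since cells of 1 library are not replicates. DESeq2 1.42.0 was an alternative, beside RLE scaling, no filter on low counts, the 4 libraries alone, cells thinned to 1000 transcripts, a replicate block, removal of ribosomal and non-coding RNA entries, and each library left out.

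Named genes were the 5 largest rises and 5 largest falls per type among called genes with a symbol, at least 50 CPM and no overlap between ages, all genes called in 2 or more types, all calls of types with 1 or 2, and called members of the gene lists. Members and lists were chosen with earlier results of these data known. A name ending such as (2OF2) marks 1 of several like entries, whose reads may be shared. For 1 member of the sterol list, values are not reported here. The edgeR step was tested on simulated data with 1 common spread for all genes, unlike the real counts. At a log2 fold change of 1, it called 49% (rods) to 89% (bipolar cells) of the changed genes. False calls were 2.1% (cones) to 7.9% (horizontal cells) of all calls, so some settings exceeded 5%.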

Additional observations from a re-analysis of the deposited data

How the results depend on the processing

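The direction of all 181 called pairs of gene and type stayed the same in every alternative that could test them. As their ages did not overlap and the alternatives reused these libraries, a direction could hardly have turned. Of the 181 pairs, 158 stayed called with the 4 libraries of 6 and 12 weeks alone, 107 with DESeq2, 174 with RLE scaling and 55 with cells thinned to 1000 transcripts. Counts of calls moved more. Without a filter on low counts they were 1032 in the 10 types, 117 in cones, 107 in rods, 248 in Müller glia (19 of them sterol genes that were lower), 232 in bipolar cells and 113 in horizontal cells. With thinned cells they were 67 in the 10 types, 29 in Müller glia, 0 in cones, 7 each in horizontal cells and rods, 5 sterol genes and 2 in the sum of all cells. DESeq2 called 18 genes in cones, 6 in horizontal cells and 67 in the sum of all cells. The 4 libraries alone gave 47 in bipolar cells, 9 in horizontal cells, and 6 for the sum of all cells. Leaving out 1 library gave 167 to 450 calls in the 10 types (450 without 12-week library 2) and 0 to 10 in the sum of all cells (10 without 12-week library 1, 6 without either 18-week library). Müller glia had 29 to 99 (29 without 6-week library 1, 31 without 12-week library 1) and cones 24 to 124 (24 without 6-week library 2, 124 without 12-week library 2). Bipolar cells had 11 to 53 (11 without 6-week library 1, 14 without 12-week library 1, 53 without 12-week library 2, 50 without either 18-week library). Horizontal cells had 11 to 75 (11 and 12 without an 18-week library, 32 and 33 without a 6-week library, 50 and 75 without a 12-week library). Rods had 21 to 82 (38 without 6-week library 2, 82 without 12-week library 2, 27 without 18-week library 2) and the sterol list 6 to 13.

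The labels give both ages libraries 1 and 2, with nothing that ties the numbers to a shared day. The deviations of libraries with the same number correlated at -0.44 between 12 and 6 weeks in the sum of all cells, at -0.45 between 18 and 6 weeks and at 0.62 between 18 and 12 weeks, and by type at -0.43 (rods) to 0.13 (Müller glia) between 12 and 6 weeks. Since the signs differed, the numbers were not taken to pair the samples. With the number as a replicate block, 342 pairs were called in the 10 types, 110 genes in bipolar cells, 40 in horizontal cells, and 4 for the sum of all cells. A crossed pairing, added after the data were seen, gave 426 calls in the 10 types, 87 in cones, 147 in rods, 72 in bipolar cells, 29 in horizontal cells, and 11 for the sum of all cells. The test of differences between types called 0 genes in every alternative. The cause of these shifts was not tested.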
